A study of Mus musculus with 12 samples.

Results

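The 38 genes described here are imprinted genes, taken by name from the 25759 genes of the expression tables. Of these, 21 are expressed from the paternal and 17 from the maternal copy, as assigned from textbook knowledge and not from these data. They were followed through 12 polyA RNA-seq libraries of mouse embryonic stem cells (ESCs), 3 in each of 4 groups. All groups were HATX3 ESCs, which carry an Xist allele driven by a doxycycline-inducible promoter. Wild-type HATX3 ESCs were compared with ΔCdk8 ESCs (genotype Cdk8-/- in the labels), and each genotype was sequenced without doxycycline (uninduced conditions) and after 48 h of Xist expression (induced conditions). Xist is the noncoding RNA that silences the X chromosome, and Cdk8 is a kinase of the Mediator complex. The ΔCdk8 libraries came from clones 8, 11 and 15, each a single clone with a small CRISPR/Cas9 deletion that takes in the start codon, and a given clone supplied both its uninduced and its induced library. The wild-type libraries are numbered 1 to 3 (WT1 to WT3), and whether these numbers stand for separate lines or cultures is not given in the sources used here, so p-values measure the spread between these samples. The study describes the parental HATX3 ESCs as polyclonal, perhaps with some differentiated cells among them. A difference between the genotypes therefore cannot be told apart from one between polyclonal and clonal cells.

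Total gene reads per library ran from 22170087 to 60798578. Levels are given in TPM, a measure of transcript abundance, as the exon reads of a gene per base of exon, scaled to the same total in each library. Cdk8 transcript stood at 64.2, 69.4 and 74.2 TPM in uninduced WT1, WT2 and WT3 and at 34.4, 56.8 and 85.3 TPM in clones 8, 11 and 15. The genotypes overlapped, so the level of this transcript does not check the labels. All 10 ESC markers examined, Pou5f1, Sox2 and Nanog among them, reached 1 TPM, whereas 3 of 10 primitive endoderm, 1 of 10 trophoblast, 4 of 10 fibroblast and 3 of 10 neural markers stayed below 1 TPM in every library.

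Imprinted genes are expressed mainly or wholly from the copy inherited from one parent. The choice is set in the germline by DNA methylation at imprinting control regions, and it is kept in the embryo by factors such as the zinc finger protein ZFP57 and its cofactor TRIM28, which hold the methylated copy through the genome-wide demethylation after fertilization. Many paternally expressed genes, Igf2 and Peg10 among them, favour growth of the fetus or placenta, and many maternally expressed genes, such as Igf2r, Grb10, Cdkn1c and Phlda2, restrain it. Imprints can be lost or gained when ESCs are cultured. HATX3 ESCs were derived from haploid embryos and became diploid in culture, and a haploid embryo holds the genome of a single parent. Which parent this was is not given in the sources used here, and neither DNA methylation nor allele was measured in these libraries. For some members, such as Ddc, Ube3a and Ascl2, imprinted expression is known in particular tissues only.

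Promoter sequences are shown first, since many paternally expressed genes start within or beside their imprinting control region. Sequences are from RefSeq on GRCm38.p6, in windows of 300 bases from 250 before to 50 after an annotated start, and 33 of the 38 members had a window used here. Mest is shown because its fitted difference between the genotypes was the largest of any member. The 250 bases before its start are given 5′ to 3′ in lower case, and capitals mark TGCCGC or its reverse complement GCGGCA, the hexamer known to be bound by methylation-dependent ZFP57.
Mest, chr6:30737800-30738049, plus strand: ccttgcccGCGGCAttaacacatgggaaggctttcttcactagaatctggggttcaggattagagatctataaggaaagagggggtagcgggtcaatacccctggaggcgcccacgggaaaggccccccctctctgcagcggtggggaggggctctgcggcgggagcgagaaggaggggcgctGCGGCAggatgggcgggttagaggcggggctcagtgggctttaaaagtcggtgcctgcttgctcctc
Shorter stretches around the first match are given for 6 other paternally expressed members whose windows held the hexamer.
Zdbf2, chr1:63200191-63200220, plus strand: aagcgcatccatTGCCGCcgctttgcggct
Nap1l5, chr6:58907133-58907162, minus strand: cagccattcactTGCCGCgagccgcgaagc
Snrpn, chr7:60005184-60005213, minus strand: gacccctgcattGCGGCAaaaatgtgcgca
Mcts2, chr2:152686898-152686918, plus strand: gccTGCCGCagcttggcgcat
Nnat, chr2:157560093-157560122, plus strand: gccaccggggctGCGGCAttgcgcccagca
Plagl1, chr10:13090730-13090759, plus strand: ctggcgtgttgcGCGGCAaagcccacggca
The hexamer, searched on both strands, occurred in 13 of 47 windows of members (27.7%) and in 11.6% of the 32851 windows of all genes. The windows of members were also richer in CpG, with a median of 15 against 7. Among windows with at least 15 CpG, 11 of 25 windows of members (44.0%) and 25.1% of all windows held the hexamer. Mest entered these counts with overlapping windows, starting at 30737800 and 30737803, that hold the same matches. By gene, 12 of 33 members (36.4%) and 13.1% of 27025 genes had a match. The Zdbf2 match lies before an upstream start. Its window at 63273019 to 63273318, which spans the gene start used for the read counts, held 0 matches. Windows of paternally expressed Igf2 and of maternally expressed Calcr, Copg2, Grb10 and Zim1 held it too, and those of Peg3 and Zrsr1, among other paternally expressed members, did not. A match is a description of the letters and not a bound site.

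In uninduced wild-type ESCs, 31 of the 38 members had a mean of at least 1 TPM and 17 reached 10 TPM. Over all libraries, 32 members reached a mean of 1 TPM in at least 1 group, 18 with the paternal and 14 with the maternal copy expressed. The other 6, Asb4, Zim1, Usp29, Magel2, Kcnq1 and Rasgrf1, stayed below 1 TPM in every group. The highest mean levels over the 12 libraries were those of Peg10, a retrotransposon-derived gene needed for the placenta (296 TPM), Mest, a hydrolase-fold protein of mesoderm (156 TPM), Snrpn, a splicing ribonucleoprotein subunit (130.3 TPM), Impact, a translation regulator (102 TPM), and Phlda2, a limiter of placental growth (100.5 TPM). The first 4 of these are paternally expressed and Phlda2 is maternally expressed. Their levels differed between libraries far more than their order shows.

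The median member varied more between libraries of a genotype than the median gene did. The range of log2(TPM + 1) over the 3 uninduced wild-type libraries had a median of 0.80 in the 32 expressed members and 0.38 in all 12713 genes that reached a mean of 1 TPM in at least 1 group (expressed genes). Over the 3 uninduced ΔCdk8 clones the medians were 1.87 and 0.56. The range exceeded 2-fold in 11 members (34.4%) among wild-type and in 21 (65.6%) among ΔCdk8 ESCs, beside 9.34% and 19.6% of all expressed genes. Each ΔCdk8 library came from a single clone and the parental ESCs were polyclonal, so these ranges do not compare the genotypes alone. The largest difference between the uninduced and the induced library of a clone had a median of 0.31 on this scale in the members and 0.27 in all expressed genes. The range between clones exceeded this difference in 30 of the 32 members, beside 80.5% of all expressed genes. In wild-type ESCs the same difference within a number had a median of 0.58 in the members and 0.41 in all expressed genes. There the range between numbers exceeded it in 22 of the 32 members (68.75%), beside 45.8% of all expressed genes.

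The first question was which imprinted genes differed between ΔCdk8 and wild-type ESCs. Mest, Peg3, Zdbf2 and Impact, all paternally expressed, stood lower in every ΔCdk8 library than in every wild-type library of the same condition, and Igf2 stood higher, with group means at least 1.5-fold apart. The 4 lower members make up 12.5% of the 32 expressed members, beside a background of 1.65% of all expressed genes. The single higher member makes up 3.12%, beside 7.13%. Mest read 228, 334 and 394 TPM in uninduced WT1, WT2 and WT3 and 18.3, 1.71 and 26.01 TPM in clones 8, 11 and 15, and under induced conditions 255, 269.5 and 293 against 18.8, 2.24 and 28.9 TPM. The highest ΔCdk8 library was thus far below the lowest wild-type library, and clone 11 was lowest. The log2 fold change was -4.61 ± 0.84 (standard error) in uninduced conditions (edgeR, adjusted p = 0.11) and -4.29 ± 0.74 in induced conditions (edgeR, adjusted p = 0.054). Copg2, a coat protein gene that overlaps the end of Mest on the other strand, read 74.6, 50.7 and 44.6 TPM in uninduced wild-type and 120.0, 37.2 and 82.7 TPM in ΔCdk8 ESCs, and the genotypes overlapped.

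Peg3, a zinc finger gene, read 17.0, 21.8 and 35.7 TPM in the uninduced wild-type libraries and 3.51, 0.112 and 5.77 TPM in clones 8, 11 and 15. Zdbf2, another zinc finger gene, read 33.8, 29.9 and 29.1 against 17.6, 4.19 and 24.2 TPM. Impact read 119.6, 132 and 164 against 84.2, 5.92 and 117 TPM. In all 3 genes clone 11 was the lowest library, and the distance from wild-type was small for clone 15 in Zdbf2 and Impact. The log2 fold changes in uninduced conditions were -3.19 ± 1.00 for Peg3, -1.22 ± 0.49 for Zdbf2 and -1.17 ± 0.79 for Impact (edgeR, adjusted p = 0.18, 0.23 and 0.4). Igf2, the fetal growth factor, read 17.7, 0.660 and 1.73 TPM in WT1, WT2 and WT3 and 24.0, 27.8 and 129.7 TPM in clones 8, 11 and 15, so that WT1 lay close to clone 8 and the others apart. Its log2 fold change was 2.96 ± 1.21 (edgeR, adjusted p = 0.23). Only 1.6% of the Igf2 reads were counted as unique to the gene, which overlaps the annotated gene AC013548.1 on the same strand. Igf2r, the receptor that clears IGF2, read 23.2, 18.5 and 21.0 TPM in wild-type and 33.9, 27.0 and 31.7 TPM in ΔCdk8 ESCs, without overlap, at a log2 fold change of 0.42 ± 0.14 (edgeR, adjusted p = 0.18).

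The threshold of the study asks for more than a 2-fold change at an adjusted p under 0.01, and no member passed it in either comparison of the genotypes by edgeR, nor did any other gene (0% of 14646 genes in uninduced and 0% of 14143 in induced conditions, with the libraries of each condition fitted alone). With all 12 libraries in 1 fit, edgeR called 3 genes higher and 2 lower in uninduced and 110 higher and 35 lower in induced conditions, 0 members among them. In uninduced conditions 37 members were tested. At an unadjusted p under 0.05, 4 of them (Snrpn, Igf2, Ddc and Igf2r; 10.8%) were higher in ΔCdk8 ESCs, beside 11.9% of all genes, and 7 (Mest, Calcr, Peg3, Usp29, Zdbf2, Asb4 and Ndn; 18.9%) were lower, beside 8.49%. In induced conditions 4 members (10.8%) were higher, beside 14.9%, and 8 (21.6%) were lower, beside 11%. The uninduced count of 11 at an unadjusted p under 0.05 was 5 without WT2 or without WT3 and 7 without clone 8, while the share of all genes at this p went from 20.4% to 9.91%, 9.495% and 11.2%. The same clones entered both comparisons, so the induced one is no independent repeat. DESeq2 called Mest and Calcr in uninduced conditions (2.64% of all genes called) and Mest in induced conditions (5.8%). The median log2 fold change over the members was -0.29 in uninduced conditions, beside 0.03 over all genes tested, with -0.98 over the paternally and -0.24 over the maternally expressed members. Single libraries moved these medians. That over the members was -0.51 without clone 11, -0.52 without clone 15 and -0.50 without WT2, and that over the maternally expressed members was -0.37 without clone 11, -0.01 without clone 15, -0.09 without clone 8 and -0.09 without WT1. In induced conditions the medians were -0.31 over the members, -0.69 over the paternally and 0.04 over the maternally expressed ones, beside 0.03 over all genes tested. The paternal one was -0.43 without clone 11 and -1.08 without clone 15. The maternal one was -0.15, 0.07 and 0.07 without WT1, WT2 and WT3, and 0.11, -0.39 and 0.23 without clones 8, 11 and 15, so that its sign rests on single libraries.

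Calcr, the calcitonin receptor, read 0.350, 3.73 and 4.64 TPM in uninduced wild-type and 0.0114, 0.350 and 0.0951 TPM in ΔCdk8 ESCs. The ranges met between WT1 and clone 11, the highest of the ΔCdk8 clones. Ndn, a MAGE family member, read 2.44, 3.72 and 5.61 against 2.26, 1.498 and 3.17 TPM, with overlap. Ddc, the aromatic amino acid decarboxylase, read 22.2, 17.7 and 14.5 against 33.0, 28.4 and 29.8 TPM, without overlap, at a log2 fold change of 0.56 ± 0.22 (edgeR, adjusted p = 0.22). Of the members below 1 TPM in every group, Usp29 (-1.43 ± 0.47) and Asb4 (-1.18 ± 0.42) had negative log2 fold changes in uninduced conditions and Zim1 (-1.62 ± 0.57), Usp29 (-1.47 ± 0.42) and Magel2 (-2.89 ± 0.56) in induced conditions, where that of Kcnq1 was positive (2.12 ± 0.76). Adjusted p-values of these 5 genes lay between 0.057 and 0.2 (edgeR), and their levels were too low for firm statements. The fits used total gene reads, of which 40.2% were intronic in Usp29. Its TPM, from exon reads, overlapped between the genotypes, at 0.995, 0.419 and 0.423 in uninduced wild-type and 0.680, 0.215 and 0.326 in clones 8, 11 and 15. Rasgrf1 had too few reads to be tested in any comparison.

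The ΔCdk8 clones differed among themselves. A gene was counted as set apart in a clone where log2(TPM + 1) was at least 2-fold above or at least 2-fold below both other clones, in both conditions. In clone 11, 12 of the 32 expressed members (37.5%) were set apart below, beside 3.62% of all expressed genes, and 4 (12.5%) above, beside 1.5%, which makes 16 in all (50%) beside 5.12%. The 12 members below are all paternally expressed, 12 of 18 in that class, and comprise Zdbf2, Mcts2, Nnat, Sgce, Peg10, Mest, Nap1l5, Peg3, Snrpn, Plagl1, Zrsr1 and Impact. The 4 members above, H13, Slc22a18, Phlda2 and Grb10, are all maternally expressed, out of 14. The split by class was less complete under other limits. At 1.5-fold, maternally expressed Gatm and Copg2 also counted below, and with a pseudocount of 0.1 Gatm did. The same limits added members on the side of their class, Cdkn1c above and Peg12 below at 1.5-fold and Calcr above with the pseudocount of 0.1. These are counts over 1 clone, whose 2 libraries are the same cells in 2 conditions, and no test was made. Clone 11 was singled out by these values.

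**Figure D1:**
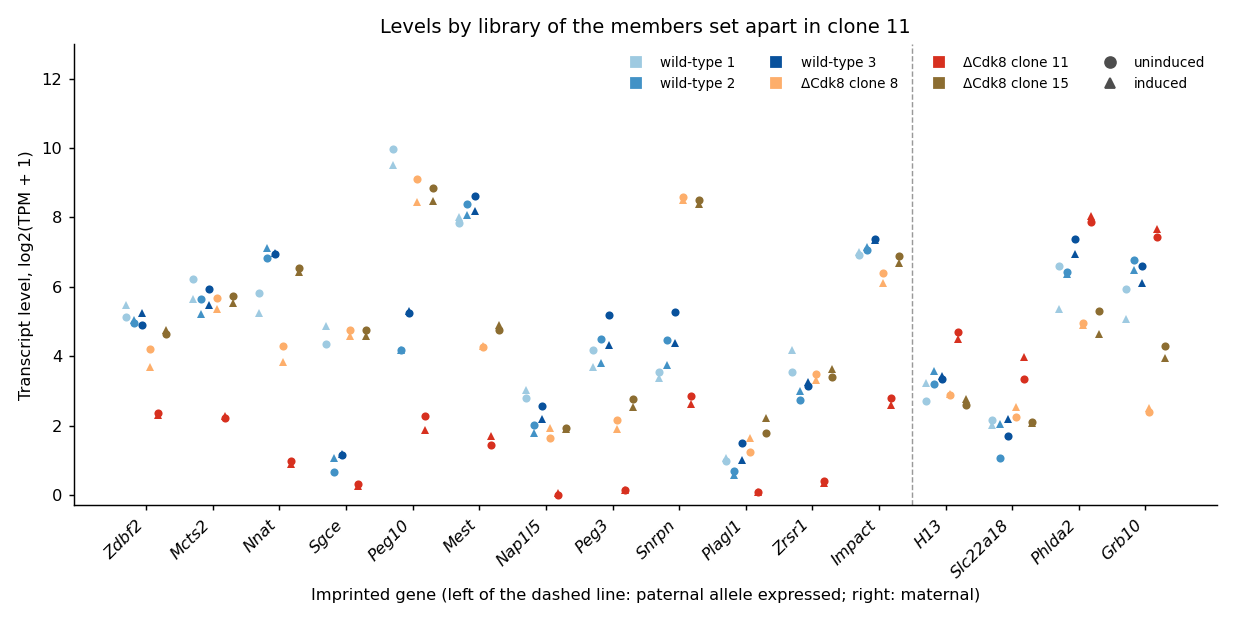
Levels of the 16 members set apart in clone 11, as log2(TPM + 1) on the vertical axis, with 1 point per library (circles uninduced, triangles induced; blue wild-type, orange to brown ΔCdk8 clones 8 and 15, red clone 11). The red points lie lowest in all 12 paternally expressed genes left of the dashed line and highest in all 4 maternally expressed genes right of it.

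Among the paternally expressed members, Peg10 read 552, 3.90 and 458 TPM in uninduced clones 8, 11 and 15, 117-fold lower in clone 11 than in the nearer clone. Its neighbour Sgce, epsilon-sarcoglycan, which starts beside Peg10 in the opposite direction, read 26.1, 0.2499 and 25.8 TPM (103-fold, from only 10 gene reads in uninduced and 6 in induced clone 11, so that this fold is imprecise). Snrpn read 381, 6.27 and 364 TPM (58.0-fold). In these 3 genes clones 8 and 15 were close to each other and clone 11 stood apart by the widest margins of any member on the log2(TPM + 1) scale. Zrsr1, a spliceosomal retrogene, read 10.2, 0.334 and 9.64 TPM, and Mcts2, also a retrogene, 50.1, 3.64 and 52.5 TPM. Nnat, the proteolipid neuronatin, read 18.6, 0.991 and 93.0 TPM, and Impact was 14.2-fold and Mest 10.7-fold lower in clone 11 than in the nearer clone. Nnat thus differed between all 3 clones, whereas Zrsr1 and Mcts2 set clone 11 apart from an even pair. Plagl1, a zinc finger transcription factor, read 1.36, 0.0698 and 2.43 TPM from only 10 gene reads in clone 11. Nap1l5, of the nucleosome assembly protein family, read 2.10, 0 and 2.79 TPM, with 0 gene reads in uninduced and 1 in induced clone 11. Peg3 had 19 and 11 gene reads in the uninduced and induced libraries of clone 11, so these lowest levels are near the limit of detection at this depth. Under induced conditions clone 11 was again below the nearer clone in all 12, from 3.07-fold in Zdbf2 to 131-fold in Peg10 among the 11 members other than Nap1l5.

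Clone 11 lay below every wild-type library in both conditions for 14 of the 18 expressed paternal members (77.8%), beside 17.2% of all expressed genes, and 1 (Igf2) lay above. In uninduced Peg3 it was 152-fold, in Mest 133-fold, in Nnat 56.2-fold and in Impact 20.2-fold lower than the lowest wild-type library. Uninduced WT1, WT2 and WT3 read 55.7, 113 and 123 TPM for Nnat, 73.7, 49.4 and 60.9 TPM for Mcts2 and 10.6, 5.69 and 7.79 TPM for Zrsr1. They read 5.94, 3.01 and 4.98 TPM for Nap1l5 and 0.961, 0.624 and 1.82 TPM for Plagl1. All of these lay above clone 11, as did their induced libraries. For Snrpn and Sgce the difference from the lowest wild-type library was only 1.71-fold and 2.31-fold. Igf2 was not set apart in clone 11, where it read 27.8 TPM, between clones 8 and 15. Ddc, Dlk1 (a Notch-ligand-like protein), Inpp5f (an inositol phosphatase), Ndn and Peg12 (a GSK3-binding protein) were the other expressed paternal members not set apart in this clone.

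Of the 14 expressed maternal members, 4 were set apart above in clone 11 and 0 below. Grb10, an adaptor that dampens insulin receptor signalling, read 4.29, 171 and 18.6 TPM in uninduced clones 8, 11 and 15, 9.17-fold higher in clone 11 than in the nearer clone. Phlda2 read 30.0, 233 and 38.6 TPM (6.04-fold). H13, the signal peptide peptidase that has Mcts2 in an intron on the same strand, read 6.36, 24.9 and 5.01 TPM (3.91-fold), and the transporter Slc22a18 3.74, 9.13 and 3.32 TPM (2.44-fold). All 4 also stood above every wild-type library in both conditions, since uninduced wild-type read 60.1, 108 and 96.9 TPM for Grb10, 95.6, 84.8 and 164 TPM for Phlda2, 5.56, 8.14 and 9.09 TPM for H13 and 3.51, 1.09 and 2.24 TPM for Slc22a18. In all, clone 11 lay above every wild-type library in both conditions for 7 of the 14 expressed maternal members, beside 18.8% of all expressed genes, and below for 3, beside 17.2%. Cdkn1c, the cyclin-dependent kinase inhibitor p57, was 2.25-fold above the nearer clone in uninduced and 1.63-fold above in induced conditions (12.1, 51.2 and 22.7 and 7.61, 31.3 and 19.2 TPM), and was thus not counted as set apart. Blcap, whose intron holds Nnat on the other strand, read 23.9, 41.9 and 24.9 TPM. The 3 maternal members below every wild-type library were Copg2 (120.0, 37.2 and 82.7 TPM in the clones, 2.22-fold below the nearer one), the creatine synthesis enzyme Gatm (3.89, 1.56 and 8.07 TPM, 2.49-fold) and the actin-binding scaffold Ppp1r9a (12.4, 7.37 and 8.35 TPM).

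**Figure D2:**
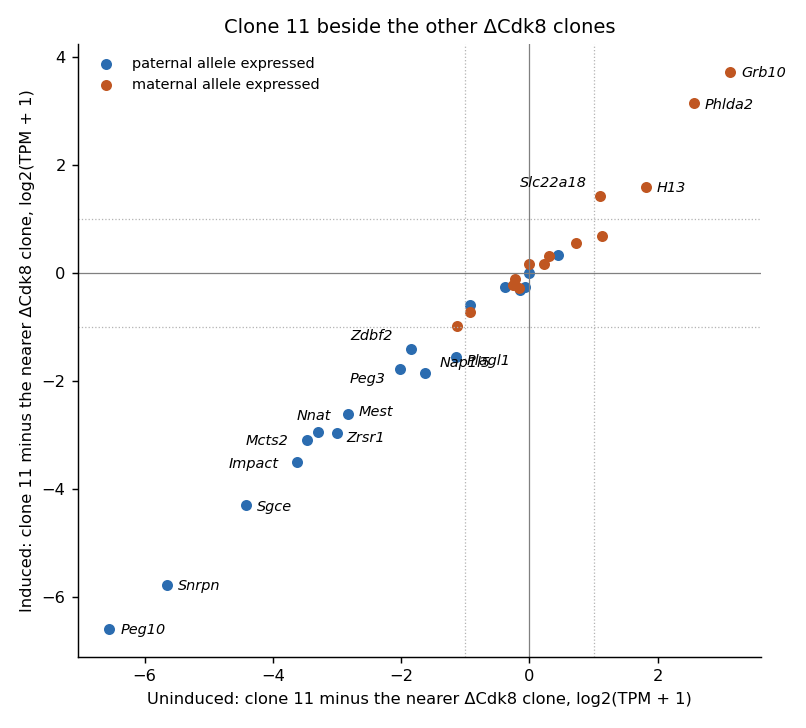
Difference in log2(TPM + 1) between clone 11 and the nearer of clones 8 and 15, uninduced on the horizontal and induced on the vertical axis, for the 32 expressed members (blue paternal, orange maternal copy expressed). Dotted lines mark 2-fold; the points run along the diagonal from Peg10 (-6.55 uninduced) to Grb10 (3.13), with 12 paternal members below and 4 maternal members above in both conditions.

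Neighbouring genes of opposite class went apart in clone 11 at some loci and not at others. In uninduced conditions Mcts2 was 13.8-fold lower while H13 was 3.91-fold higher, and Nnat was 18.7-fold lower while Blcap was 1.68-fold higher, than in the nearer clone. Mest and Copg2 were both lower, 10.7-fold and 2.22-fold, and the maternally expressed neighbours of Snrpn and of Peg10, Ube3a and Ppp1r9a, were 1.20-fold and 1.13-fold lower. Calcr, maternally expressed and of the same cluster as Peg10, was 3.68-fold higher, though at only 0.350 TPM in clone 11. Grb10 was 9.17-fold higher and its paternally expressed neighbour Ddc 1.05-fold lower. Reads of H13 that continue past Mcts2, and reads of Nnat and Blcap, can be hard to assign where the annotations overlap, and whether strand was used in the counting is not given in the sources used here. None of the Mcts2 reads were counted as unique to the gene, against 100% for H13 and Nnat. Of the Snrpn reads, 68.7% were unique, and Snrpn overlaps the annotated genes Snurf and Gm38393 on the same strand.

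Summed trophoblast markers were lowest in clone 11 among the ΔCdk8 clones in both conditions, with Tpbpa below 1 TPM in every library. Their level was 76.1 TPM in uninduced and 71.1 TPM in induced clone 11, beside up to 567 TPM in another uninduced clone and 34.0 to 170.2 TPM in uninduced wild-type. Summed fibroblast markers were highest in clone 11 (36.5 TPM, with Col3a1, Twist2, Lum and Dcn below 1 TPM in every library), and summed ESC markers were 6433 TPM, within the range of the other libraries. Summed neural markers of clone 11 were the lowest of the ΔCdk8 clones, at 405 TPM in uninduced and 391 TPM in induced conditions. Marker sums also differed between the genotypes. In uninduced conditions neural markers summed to 405 to 496 TPM in ΔCdk8 and 246 to 320.3 TPM in wild-type ESCs, primitive endoderm markers to 90.9 to 139 and 47.5 to 82.6 TPM, and fibroblast markers to 25.3 to 36.5 and 12.1 to 21.3 TPM. These 3 sums were higher in every ΔCdk8 library than in every wild-type library of the same condition, as was Igf2, while Mest, Peg3, Zdbf2 and Impact were lower. Sox17, Foxa2 and Pdgfra of the primitive endoderm markers stayed below 1 TPM in every library. The part of other cells in the levels of the members was not tested.

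Other numbers had fewer members set apart. Clone 15 had 3 above (Nnat, Inpp5f and Igf2; 9.38%) and 0 below, beside 0.645% of all expressed genes above, 0.244% below and 0.889% in all. Clone 8 had 0 above and 1 below (Grb10; 3.12%), beside 0.307%, 0.149% and 0.456%. Among wild-type, WT1 had 3 above (Peg10, Sgce and Igf2; 9.38%) and 1 below (Nnat; 3.12%), beside 1.4%, 0.669% and 2.07%. WT2 had 0 above and 1 below (Peg10; 3.12%), beside 0.0157% of all expressed genes above, 0.0236% below and 0.0393% in all, and WT3 had 0, beside 0.0393% and 0.0393%. Peg10 in WT1 read 995 TPM in uninduced and 727 TPM in induced conditions, against 17.0 and 17.2 TPM in WT2 and 37.0 and 38.3 TPM in WT3. Sgce followed, at 19.4, 0.578 and 1.21 TPM in uninduced WT1, WT2 and WT3. WT1 was thus near clones 8 and 15 for this gene pair, and WT2 and WT3 were nearer to clone 11. In the comparisons of the genotypes Peg10 and Sgce had log2 fold changes of -0.29 ± 1.70 and 1.06 ± 1.55 in uninduced conditions (edgeR, adjusted p = 0.94 and 0.7), and without WT1 that of Peg10 was 3.41 ± 1.63.

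**Figure D3:**
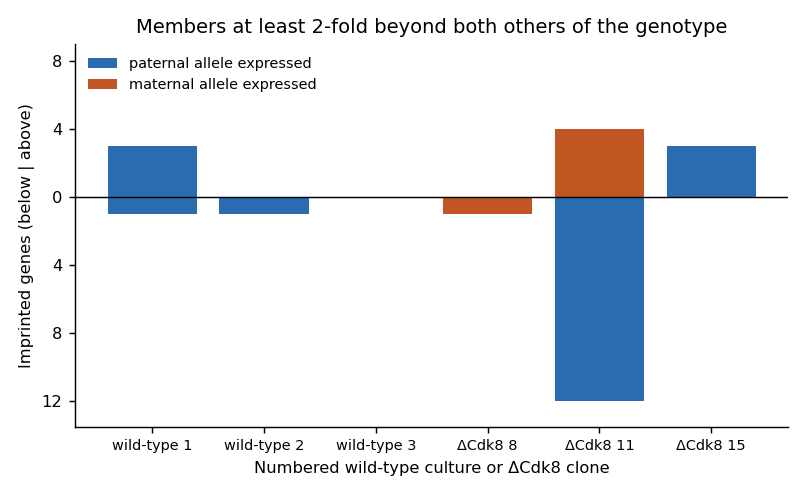
Number of expressed members at least 2-fold above (bars up) or below (bars down) both others of the genotype in both conditions, for WT1 to WT3 and clones 8, 11 and 15, coloured by the copy expressed. Clone 11 has 4 maternal members above and 12 paternal members below, and no other number has more than 4 in all.

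The genotypes were also compared without the libraries of clone 11. Clone 11 was singled out by the values of these same members, so the fold changes and counts without it are a description and no test of the members. With clones 8 and 15 alone, Mest (-3.79 ± 0.23) and Snrpn (4.34 ± 0.34) lay past the threshold in induced conditions (log2 fold changes ± standard error, edgeR), where 0.369% of all genes did. In uninduced conditions no member did, and 2 of 15015 genes (0.0133%) did. The uninduced log2 fold changes were -4.11 ± 0.30 for Mest, 3.75 ± 0.48 for Snrpn, -2.64 ± 0.38 for Peg3, -1.98 ± 0.33 for Phlda2, -0.81 ± 0.15 for Zdbf2 and -3.23 ± 0.64 for Grb10. At an unadjusted p under 0.05, 3 members were higher and 12 lower in uninduced conditions, 8.11% and 32.4% of the 37 tested, beside 18.2% and 18% of all genes, and in induced conditions 4 were higher and 11 lower, 10.8% and 29.7%, beside 19.9% and 18.3%. DESeq2 was not run on these libraries.

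In Snrpn, Grb10 and Phlda2, clone 11 lay on the other side of wild-type from clones 8 and 15. Snrpn read 10.7, 21.0 and 37.5 TPM in uninduced WT1, WT2 and WT3 and 381, 6.27 and 364 TPM in clones 8, 11 and 15, so that clones 8 and 15 lay above every wild-type library and clone 11 below it. With all clones its log2 fold change was 3.20 ± 1.17 (edgeR, adjusted p = 0.21). Grb10 and Phlda2 went the other way. Uninduced wild-type read 60.1, 108 and 96.9 TPM for Grb10 and 95.6, 84.8 and 164 TPM for Phlda2, clones 8 and 15 lay below all of these, and clone 11 lay above. Their log2 fold changes with all clones were -0.48 ± 1.12 and -0.24 ± 0.80 (edgeR, adjusted p = 0.81 and 0.87). Mest and Peg3 had negative log2 fold changes with and without clone 11.

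**Figure D4:**
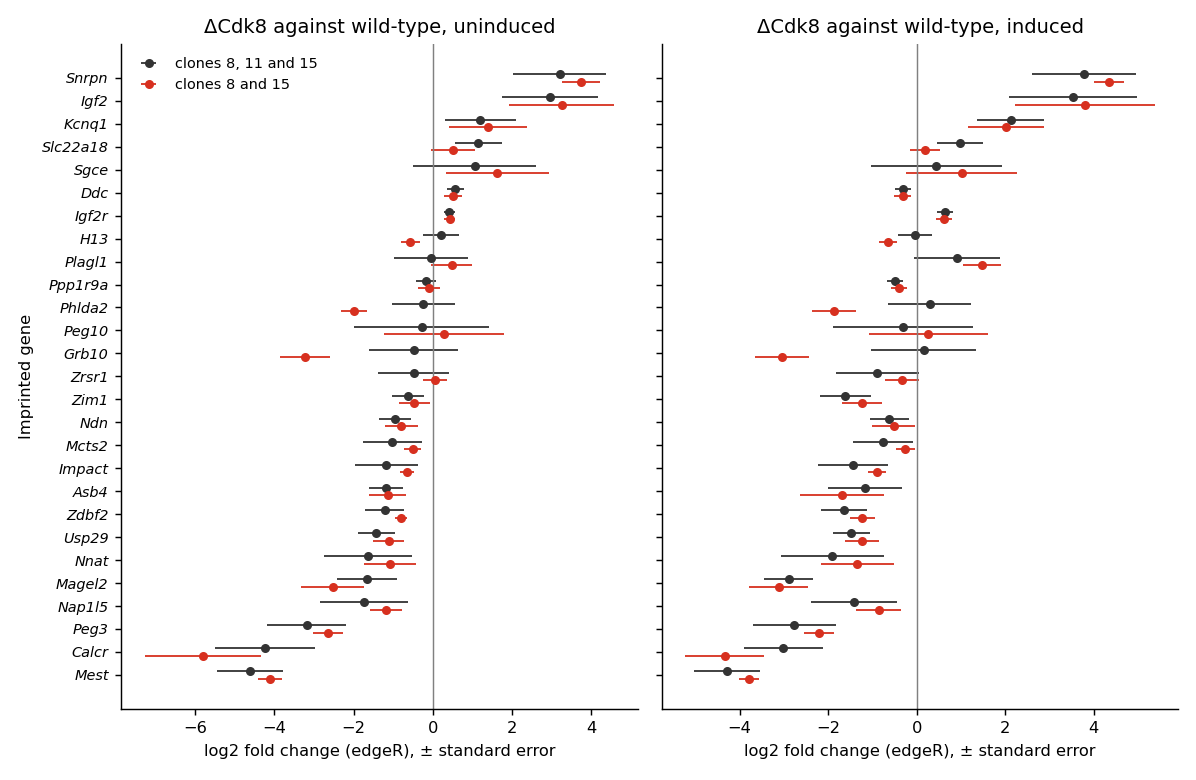
Log2 fold change of ΔCdk8 against wild-type ESCs (edgeR, bars ± standard error) in uninduced (left) and induced (right) conditions, for members with an unadjusted p under 0.05 in either comparison or set apart in clone 11; black uses clones 8, 11 and 15 and red clones 8 and 15. Uninduced Mest lies at -4.61 and -4.11, whereas Grb10 goes from -0.48 to -3.23 without clone 11.

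The next question was whether the members changed when Xist was expressed for 48 h. All members are autosomal. In wild-type ESCs, 36 members were tested and 0 passed the threshold by edgeR without pairing, beside 1.16% of all genes. At an unadjusted p under 0.05, 2 (Blcap and Ddc; 5.56%) were higher and 4 (Cdkn1c, Ndn, Inpp5f and Mcts2; 11.1%) lower under induced conditions, beside 10.8% and 10.4%. Uninduced and induced libraries of the same number deviated together, so the number was also used as a block. With the block, Cdkn1c and Dlk1 fell past the threshold, beside 3.95% of all genes, and 7 (19.4%) and 13 members (36.1%) were higher and lower at an unadjusted p under 0.05, beside 21.2% and 17.7%. DESeq2 without the block called Cdkn1c (4.73% of all genes called). The count of 6 at an unadjusted p under 0.05 without the block was 20 without WT1, 2 without WT2 and 3 without WT3, while the share of all genes at this p went from 21.2% to 39.4%, 9.29% and 8.85%.

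Cdkn1c read 21.8, 23.3 and 33.3 TPM in uninduced and 12.6, 10.4 and 11.4 TPM in induced WT1, WT2 and WT3, lower after induction in all 3. The log2 fold change was -1.16 ± 0.20 without the block (edgeR, adjusted p = 0.028) and -1.14 ± 0.15 with it (adjusted p = 0.0064). Dlk1 read 0.867, 3.63 and 3.70 TPM before and 0.294, 1.53 and 1.33 TPM after induction, with a log2 fold change of -1.40 ± 0.20 with the block (edgeR, adjusted p = 0.0081). WT1 was far below WT2 and WT3 in both conditions, and all 3 were lower after induction. Ddc was higher after induction, from 22.2, 17.7 and 14.5 to 39.2, 33.6 and 29.0 TPM in WT1, WT2 and WT3 (log2 fold change 0.90 ± 0.10 with the block, edgeR, adjusted p = 0.0046), which is below the 2-fold threshold. Peg3 also had an adjusted p under 0.01 with the block, at a log2 fold change of -0.71 ± 0.07 (edgeR, adjusted p = 0.0034). Ndn read 1.03, 2.06 and 2.31 TPM and Inpp5f 6.54, 3.53 and 5.45 TPM after induction, against 2.44, 3.72 and 5.61 and 8.67, 6.33 and 9.53 TPM before. Igf2 read 9.99, 0.165 and 0.195 TPM after and 17.7, 0.660 and 1.73 TPM before induction, with the ratio of induced to uninduced highest in WT1. Without WT1, Calcr passed the threshold too (log2 fold change -1.53 ± 0.23, edgeR, adjusted p = 0.0083), with Cdkn1c and Dlk1, beside 3.99% of all genes. At an unadjusted p under 0.05, 6 of 36 members were then higher and 14 of 36 lower, beside 19.3% and 20.1% of all genes.

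In ΔCdk8 ESCs, none of the 35 members tested passed the threshold with or without the block (edgeR; DESeq2 also called 0), beside 0% and 1.4% of all genes. Without the block, 0 members had an unadjusted p under 0.05 (1 by DESeq2), beside 0.553% of all genes higher and 2.09% lower. With it, 3 (8.57%) were higher and 11 (31.4%) lower, beside 12.9% and 11.9% of all genes. Among those lower were Peg10 (552, 3.90 and 458 TPM before and 351, 2.67 and 354 TPM after induction in clones 8, 11 and 15), Igf2 (24.0, 27.8 and 129.7 and 17.4, 21.9 and 95.6 TPM) and Cdkn1c (12.1, 51.2 and 22.7 and 7.61, 31.3 and 19.2 TPM). Their log2 fold changes were -0.50 ± 0.08, -0.40 ± 0.07 and -0.53 ± 0.11 (edgeR with the block, adjusted p = 2.5e-04, 0.0011 and 0.0035). Each was lower after induction in all 3 clones. Without clone 11, the block gave 1 member higher and 11 lower, 2.86% and 31.4%, beside 10% and 13% of all genes.

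The genotypes were compared in their response by the interaction of genotype and induction. Of 37 members tested, 0 passed the threshold in edgeR with or without the block, and 0 by DESeq2, beside 0%, 0.998% and 0.218% of all genes. Without the block, Ddc alone had an unadjusted p under 0.05 (log2 difference -0.85 ± 0.25, adjusted p = 0.72). With it, 11 members (29.7%) had a log2 fold change above that of wild-type in ΔCdk8 ESCs and 6 (16.2%) had one below it, at an unadjusted p under 0.05, beside 12.2% and 10.5% of all genes. Ddc, at 33.0, 28.4 and 29.8 TPM before and 32.4, 26.7 and 32.0 TPM after induction in clones 8, 11 and 15, differed from wild-type by -0.87 ± 0.13 (edgeR with the block, adjusted p = 0.0057). Dlk1, at 0.247, 1.46 and 0.801 and 0.252, 1.29 and 0.825 TPM, differed by 1.39 ± 0.28 (adjusted p = 0.02). In these 2 genes the wild-type numbers differed between conditions, while the clones stayed within 0.880 to 1.07 of their uninduced level.

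**Figure D5:**
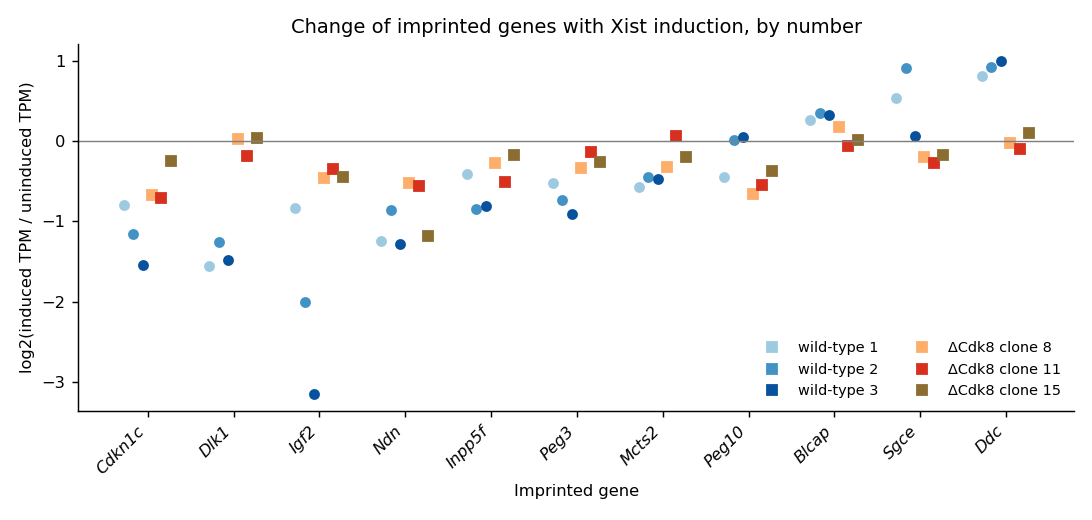
Log2 ratio of induced to uninduced TPM for each wild-type number (circles) and ΔCdk8 clone (squares) in 11 imprinted genes, chosen after their values were seen. Cdkn1c and Dlk1 lie below 0 and Ddc above 0 in all 3 wild-type numbers, and the clones lie near 0 for Dlk1 and Ddc.

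Mcts2 and Zrsr1 are retrogenes with X-linked parents, which allows autosomal copy and X-linked source to be set side by side under Xist expression. Mcts1, the parent of Mcts2, read 119, 95.6 and 99.0 TPM in uninduced and 53.4, 40.8 and 29.2 TPM in induced WT1, WT2 and WT3, and 77.9, 96.9 and 98.6 and 51.6, 59.0 and 65.1 TPM in clones 8, 11 and 15. With the block Mcts1 fell past the threshold in wild-type ESCs (-1.30 ± 0.14, adjusted p = 0.0037, edgeR) and by a log2 fold change of -0.58 ± 0.09 in ΔCdk8 ESCs (adjusted p = 2.6e-04). The interaction was 0.74 ± 0.17 (edgeR with the block, adjusted p = 0.035). Mcts2 itself read 49.6, 36.4 and 43.9 TPM in induced wild-type ESCs, 0.710 ± 0.0326 (SD, n = 3) of the uninduced level, against 0.390 ± 0.0833 for Mcts1. In ΔCdk8 ESCs these ratios were 0.907 ± 0.129 for Mcts2 and 0.644 ± 0.0300 for Mcts1. Since 0% of the Mcts2 reads were unique, the values of Mcts2 are uncertain. Clone 11, which was low in Mcts2, read 96.9 TPM for Mcts1, within the range of the other clones. Zrsr2, the parent of Zrsr1, read 15.9, 14.8 and 16.7 TPM in uninduced and 14.99, 13.6 and 11.4 TPM in induced wild-type ESCs, with a log2 fold change of -0.21 ± 0.11 (edgeR with the block, adjusted p = 0.22).

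A second list of 47 imprinted genes, of which 38 were in the tables and 24 expressed, held 0 genes past the threshold in any comparison by edgeR without the block. In uninduced conditions, of 28 tested, 2 were higher and 6 lower in ΔCdk8 ESCs at an unadjusted p under 0.05, beside 11.9% and 8.49% of all genes, the lowest p being those of Lin28b and Jade1. Of the 24 expressed, clone 11 was set apart below in 3, beside 3.62% of all expressed genes, Slc38a4 (298, 148 and 315 TPM in clones 8, 11 and 15), Sfmbt2 (50.7, 18.8 and 67.5 TPM) and Smoc1 (20.0, 5.81 and 17.2 TPM), and above in 0, beside 1.5%. Of 29 genes that set or keep imprints, 26 were expressed and 0 passed the threshold (edgeR), with 1 higher and 5 lower of 28 tested in uninduced ΔCdk8 ESCs at an unadjusted p under 0.05, beside 11.9% and 8.49% of all genes. In induced conditions 1 was higher and 9 were lower of 28, beside 14.9% and 11%. The DNA methyltransferase genes Dnmt3b and Dnmt3a were among the 5 in uninduced conditions, at log2 fold changes of -1.54 ± 0.23 and -1.35 ± 0.30 (edgeR, adjusted p = 0.11 and 0.13). Of the 26, 1 was set apart in clone 11, near the share of all expressed genes. This was Dppa3, which protects imprints from demethylation in the zygote, at 105, 37.8 and 79.0 TPM in clones 8, 11 and 15 beside 150.2, 70.8 and 112 TPM in WT1, WT2 and WT3. Zfp57 read 206, 243 and 181 TPM and Trim28 875, 1647 and 777 TPM in the same clones, so clone 11 was not the lowest in either. Uninduced WT1, WT2 and WT3 read 1288, 1803 and 1678 TPM for Trim28. In others of the list clone 11 was the lowest, among them Smchd1 (48.4, 32.7 and 52.7 TPM) and Tet3 (6.18, 2.28 and 5.72 TPM). In both of these it lay below every uninduced wild-type library. The part of these genes in the levels of the members was not tested.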

How the data were processed

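PolyA RNA of 12 mouse ESC libraries (TruSeq stranded kit) was measured. The authors left adapters in place, aligned the single-end reads to Ensembl GRCm38 with CLC Genomics Workbench, and deposited raw read counts per gene (total, unique, exon and intron reads) and TPM values, which they derived from exon reads. Whether strand was used in the counting is not given in the sources used here. Multi-mapping and overlapping genes can therefore share reads.

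Total gene reads were tested with edgeR 4.0.16 (TMM, filterByExpr with a minimum count of 10, quasi-likelihood test, Benjamini-Hochberg adjustment over all genes tested), at the threshold of the study (adjusted p under 0.01 and more than 2-fold). DESeq2 1.42.0, exon reads, unique reads, other filters, libraries left out and a replicate block were alternatives. R 4.3.3 and Python 3.11.15 were used. edgeR and DESeq2 were also tested on simulated data. The simulated libraries had a lower dispersion (spread between replicates) than the 0.086 to 0.142 of these data, and no differences between clones. They check that the code runs as meant and not the error rates in these libraries. Total gene reads per library ran from 22170087 to 60798578, and counting error is largest for members with few reads.

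Groups and numbers came from the sample titles. The deviations of uninduced and induced libraries of the same number from their group means correlated over genes, with the lowest r of 0.57 in wild-type and 0.86 in ΔCdk8 ESCs, so the numbers were taken as pairs. Between libraries of different numbers the highest r was 0.41 in wild-type and 0.035 in ΔCdk8 ESCs. The pairing was thus less distinct in wild-type ESCs, and results with the block there depend on it. The clones of a number are the same line in both conditions. Fold changes of TPM used no pseudocount, and log2(TPM + 1) was used for lines set apart. Members are named where they had an unadjusted p under 0.05 and a fold change above 1.5, no overlap between genotypes in both conditions at 1.5-fold, a 2-fold departure of clone 11 in both conditions, or one of the 5 highest mean levels. Other members that are named give context to a neighbour or to a count. The members, lists and tests were chosen with earlier results of these data known. No column of the authors' own comparisons was used.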

Additional observations from a re-analysis of the deposited data

Results flagged for a closer look

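Sgce stood out because its TPM was higher after induction in all 3 wild-type numbers and lower in all 3 ΔCdk8 clones. The mean change of log2(TPM + 1) was 0.32 in wild-type and -0.13 in ΔCdk8 ESCs, a difference of -0.46. Sgce read 19.4, 0.578 and 1.21 TPM before and 28.2, 1.09 and 1.27 TPM after induction in WT1, WT2 and WT3, and 26.1, 0.2499 and 25.8 and 22.8, 0.207 and 22.9 TPM in clones 8, 11 and 15. The difference was not past the threshold in the interaction of genotype and induction, which was -0.61 ± 2.46 without the block and -0.53 ± 0.25 with it (edgeR, adjusted p = 1 and 0.25). Few gene reads lay behind some of the levels, 16 and 21 in WT2 and 10 and 6 in clone 11 before and after induction. In WT3 they were 72 of 59770613 and 45 of 42217232 in all, which is no rise. A rise in all 3 wild-type numbers thus holds for TPM only.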

How the results depend on the processing

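The numbers of members set apart in clone 11 (12 below and 4 above) stayed within 1.5 times under CPM, a pseudocount of 0.1 and a fold of 1.5, and the last 2 added 1 and 2 maternally expressed members below. The pseudocount of 0.1 also added maternally expressed Calcr above, and the fold of 1.5 maternally expressed Cdkn1c above and paternally expressed Peg12 below. The counts of members past the threshold were 0 in each of the 5 comparisons. Of the members whose log2 fold changes are given in the text for uninduced ΔCdk8 against wild-type ESCs, 3 changed sign with a library left out. Peg10 (-0.29) went to 3.41 without WT1 and 0.29 without clone 11, Phlda2 (-0.24) to 0.09 without WT3, 0.17 without clone 15 and 0.21 without clone 8, and Grb10 (-0.48) to 0.079 without clone 8. Their lowest values with a library left out were -0.87 for Peg10 (clone 8), -1.98 for Phlda2 (clone 11) and -3.23 for Grb10 (clone 11). Of the members' log2 fold changes given in the text, no other changed sign under the alternatives run. Members without a fold change in the text were not counted, and the direction can rest on 1 clone there too. Uninduced H13 had a mean of 12.1 TPM in ΔCdk8 and 7.60 TPM in wild-type ESCs, with clones 8 and 15 at 6.36 and 5.01 TPM. The median over the maternally expressed members in induced conditions also changed sign, from 0.04 to -0.15 without WT1 and -0.39 without clone 11, and it ran up to 0.23 without clone 15. The cause was not tested. DESeq2 gave 2 in uninduced and 1 in induced ΔCdk8 against wild-type ESCs, and 1 for induction in wild-type. Leaving out a library gave 0 to 2 for the induced genotypes and 0 to 3 for induction in wild-type. An adjusted p under 0.05 with no minimum fold change gave 1 for the latter. At an unadjusted p under 0.05, the count of 11 for the uninduced genotypes ran from 5 to 15 with a library left out, and the count of 6 for induction in wild-type ran from 2 to 20, and was 2 with all 12 libraries in 1 fit. Induction in ΔCdk8 ESCs gave 0 members, from 0 to 1 with a library left out and 1 by DESeq2. The interaction gave 1, from 1 to 2.

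With the replicate block, induction in wild-type ESCs gave 2 members past the threshold and 20 at an unadjusted p under 0.05. Induction in ΔCdk8 ESCs gave 14, and the interaction 17. The block without clone 11, chosen after the data were seen, gave 12 for each of these, beside 23.1% of all genes for induction and 19.1% for the interaction. The genotype comparisons have no pairs. Depth limits the members with few reads, in particular Rasgrf1, Kcnq1, Magel2 and, in clone 11, Nap1l5, Plagl1, Sgce, Zrsr1, Nnat and Peg3.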
